A study of Mus musculus with 12 samples.

Results

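Matrix metalloproteinases and their tissue inhibitors were followed in mouse macrophages given interferon gamma (IFNγ). The set was listed by gene symbol, and its members were chosen with earlier results of these data known. It holds 10 genes of the 46729 entries in the deposited expression table, namely the 7 metalloproteinase genes Mmp2, Mmp8, Mmp9, Mmp12, Mmp13, Mmp14 and Mmp19 and the 3 inhibitor genes Timp1, Timp2 and Timp3. Each of the 10 stands alone in its entry. The cells were macrophages grown from C57BL6 bone marrow over 10 days with L-929 conditioned medium as a source of CSF-1, after a first stage that also held interleukin-3. They were left untreated or given IFNγ at 0.2, 2 or 20 U/ml for 8 h, with 3 libraries listed for each of the 4 groups. The label of the highest dose gives units with no volume and was read as U/ml. The table holds 1 FPKM value per gene and group (fragments per kilobase of transcript, scaled to library size), so no value has a standard deviation, no difference has a test, and the depth is unknown.

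Metalloproteinases are zinc enzymes, most of them secreted as inactive precursors, that cut collagens, elastin and other components of the extracellular matrix. TIMP proteins bind the active site and block them, so the balance of enzyme and inhibitor sets how much matrix is cut. Macrophages use these enzymes to cross and remodel tissue, and Mmp12 is known as the macrophage elastase. At the cell surface Mmp14, a membrane-bound enzyme, activates the precursor of Mmp2 with Timp2 as a bridge between them.

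In untreated macrophages Mmp12 and Timp2 stood at 629 and 339 FPKM, with at most 15.9 FPKM for each of the other 8 genes. Cells given 20 U/ml had lower Mmp12, Mmp8 and Mmp9 and higher Mmp13 and Mmp14. A gene entered the comparisons when its mean over the 4 groups was at least 1 FPKM and no group was listed at 0, which 11580 entries and 8 of the 10 genes met. Mmp2 and Timp3 did not. A gene counted as higher or lower when the difference in log2(FPKM + 1) was at least 1 in size, a 2-fold difference on that scale. At 20 U/ml against untreated cells, 2 of the 8 were higher and 3 lower. Mmp14, 1 of the 2, passed the filter only through its value at 20 U/ml. Among all 11580 entries 6.51% were higher and 2.94% lower. The log2 ratios of the 8 genes ran from -1.85 to 2.35 with a median of 0.03, beside a median of 0.01 for all entries.

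The sequences upstream of 4 of these genes are shown because the genes lie at the ends of the range. Mmp14 and Mmp13 had the highest ratios at 20 U/ml, and Mmp8 and Mmp12 the lowest. The place of Mmp12 depends on the added 1 FPKM. With 0.1 in its place Mmp9 (-1.86) was below Mmp12 (-1.75). Each window runs from 250 bases before to 50 after an annotated start on GRCm38.p6, from RefSeq, all on the plus strand. The windows are chr9:7272264-7272563 for Mmp13, chr9:7347124-7347423 for the downstream of the 2 annotated starts of Mmp12, chr9:7558179-7558478 for Mmp8 and chr14:54431348-54431647 for Mmp14. Capitals mark matches to motifs searched on both strands.
Mmp13: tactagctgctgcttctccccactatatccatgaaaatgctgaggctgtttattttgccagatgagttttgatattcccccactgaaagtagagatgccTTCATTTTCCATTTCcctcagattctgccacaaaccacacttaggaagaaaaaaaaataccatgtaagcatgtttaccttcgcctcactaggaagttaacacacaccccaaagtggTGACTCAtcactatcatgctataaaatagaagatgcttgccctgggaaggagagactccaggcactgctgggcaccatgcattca
Mmp12: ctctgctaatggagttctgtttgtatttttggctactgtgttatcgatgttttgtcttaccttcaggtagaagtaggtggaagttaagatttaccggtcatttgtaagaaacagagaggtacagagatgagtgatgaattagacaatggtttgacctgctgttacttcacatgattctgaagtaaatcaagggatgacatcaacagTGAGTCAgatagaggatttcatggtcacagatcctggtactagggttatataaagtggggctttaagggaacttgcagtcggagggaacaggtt
Mmp8: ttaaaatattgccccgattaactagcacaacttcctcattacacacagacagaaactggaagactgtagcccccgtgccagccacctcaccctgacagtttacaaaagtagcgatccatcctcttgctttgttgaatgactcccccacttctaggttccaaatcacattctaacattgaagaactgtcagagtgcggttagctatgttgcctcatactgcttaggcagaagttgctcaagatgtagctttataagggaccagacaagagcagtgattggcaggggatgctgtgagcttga
Mmp14: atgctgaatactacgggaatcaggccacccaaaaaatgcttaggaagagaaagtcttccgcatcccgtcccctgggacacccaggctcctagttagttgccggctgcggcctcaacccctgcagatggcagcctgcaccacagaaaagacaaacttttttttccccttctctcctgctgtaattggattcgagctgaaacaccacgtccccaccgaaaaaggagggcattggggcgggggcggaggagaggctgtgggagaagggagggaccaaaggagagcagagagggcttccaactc

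The motifs were TGANTCA, bound by AP-1 (Fos and Jun proteins), TTCNNNGAA, the gamma-activated site (GAS), and GAAANNGAA, a motif of the IRF family. The GAS motif was in 0 of the windows of these genes. Mmp13 holds TGACTCA with its first base 35 bases upstream of the start. It also holds a pair of overlapping IRF matches, TTCATTTTC and TTCCATTTC, whose first bases lie 151 and 145 bases upstream. Mmp12 holds TGAGTCA 44 bases upstream of its downstream start, and the window of its other start holds none of the 3 motifs. The windows of Mmp8 and Mmp14 hold none either. Windows were found for 7 of the 10 genes, and those of Timp1, Timp2 and Timp3 hold no match. Of 32851 windows of this length in the same table, 7.81% hold the AP-1 motif, 8.3% the GAS motif and 8.56% the IRF motif. These matches are letters in a window, and no binding was measured.

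The collagenases, Mmp8 and Mmp13, differed in direction. Mmp8, known as the neutrophil collagenase, was at 15.9 FPKM without IFNγ and 10.5, 5.78 and 3.69 with 0.2, 2 and 20 U/ml. Each dose was below the one before, and the log2 ratio to untreated was -0.56, -1.32 and -1.85. Mmp8 was the 1 gene of the 8 past the size rule at 2 U/ml. Mmp13, the collagenase of cartilage and bone, was at 5.86, 7.23, 11.4 and 20.8 FPKM in the same order. Each dose was above the one before, with log2 ratios of 0.26, 0.85 and 1.67. Mmp8 FPKM was 2.72 times Mmp13 FPKM in untreated cells, and at 20 U/ml Mmp13 was 5.63 times Mmp8. A factor that scales all values of a group leaves this ratio as it is.

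**Figure D1:**
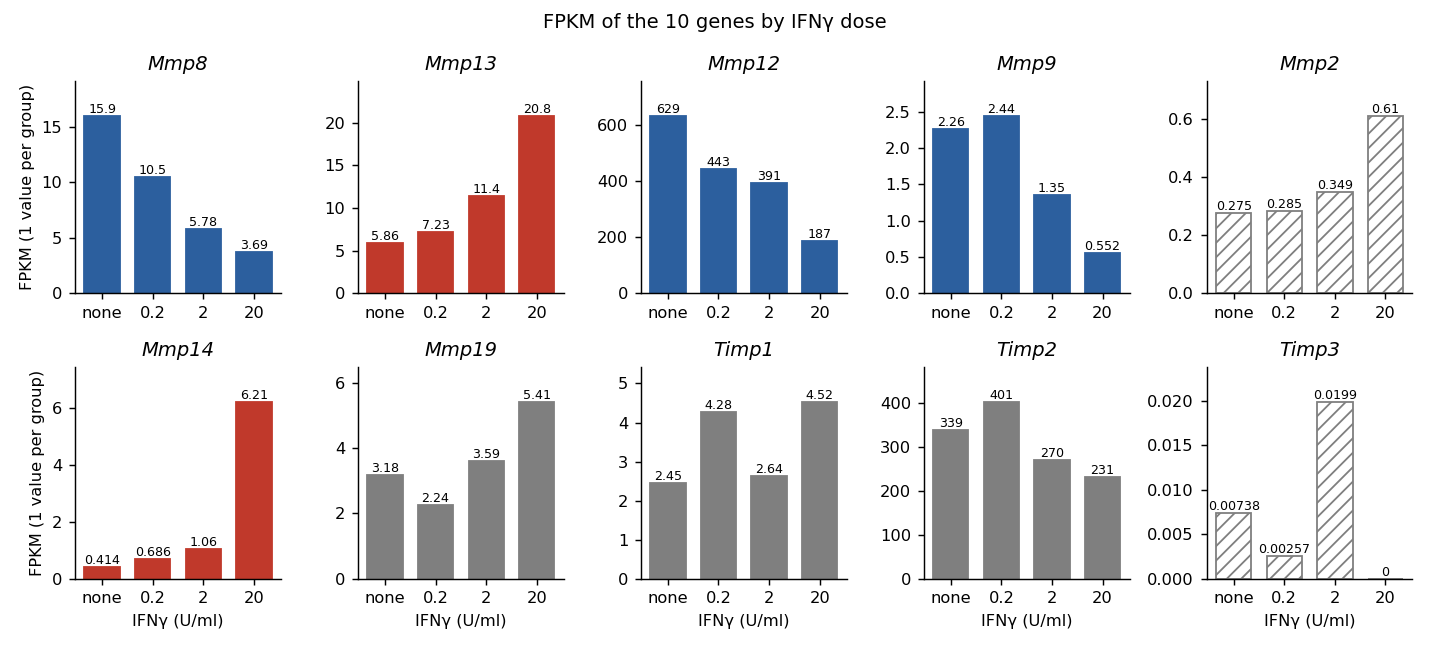
FPKM of the 10 genes (vertical axes from 0, 1 value per group, a scale for each gene) against IFNγ dose. Red bars are genes higher at 20 U/ml, blue bars lower, grey bars neither, and hatched bars are the genes below the filter. From untreated cells to 20 U/ml Mmp8 and Mmp12 go from 15.9 to 3.69 and from 629 to 187 FPKM, and Mmp13 and Mmp14 from 5.86 to 20.8 and from 0.414 to 6.21.

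Mmp12 made up most of the metalloproteinase signal. It was at 629 FPKM in untreated cells, above 98.3% of the 11580 entries, and at 443, 391 and 187 FPKM at 0.2, 2 and 20 U/ml. The deposited values went down at every dose, although the step from 0.2 to 2 U/ml (-0.18) turned to 0.19 after quantile normalization. The FPKM was 3.36-fold lower at 20 U/ml than in untreated cells. The log2 ratio was -0.51, -0.69 and -1.74, so 39.4% of the difference seen at 20 U/ml was present at 2 U/ml. At 20 U/ml Mmp12 was still above 93.6% of entries.

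The gelatinases, Mmp9 and Mmp2, cut denatured collagen and basement membrane collagen. Mmp9 was at 2.26 FPKM without IFNγ and 2.44, 1.35 and 0.552 with 0.2, 2 and 20 U/ml. The lowest dose was close to untreated and the highest was below all others, with a log2 ratio of -1.07 just past the size rule. The FPKM itself was 4.10-fold lower at 20 U/ml than in untreated cells. The added 1 FPKM damps the log2 ratio at such low values, and with 0.1 in its place the ratio was -1.86. Mmp2 was at 0.275, 0.285, 0.349 and 0.610 FPKM. It stayed under 1 FPKM in every group and so was not compared, although the value at 20 U/ml was the highest of the 4.

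Mmp14, the membrane-bound activator of Mmp2, had the highest ratio of the set. It was at 0.414 FPKM without IFNγ and 0.686, 1.06 and 6.21 with 0.2, 2 and 20 U/ml. Most of the difference lay between the upper doses, with a log2 ratio of 0.54 from untreated to 2 U/ml and of 1.81 from 2 to 20 U/ml. The ratio of the FPKM values themselves at 20 U/ml was 15.0, while the log2 ratio of 2.35 is damped by the added 1 FPKM. The call at 20 U/ml passed the filter through that group, since the other 3 values are near or below 1 FPKM. Mmp19, which acts on basement membrane components, was at 3.18, 2.24, 3.59 and 5.41 FPKM. It was lowest at 0.2 U/ml and highest at 20 U/ml, where the log2 ratio of 0.62 did not pass the size rule.

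Neither Timp1 nor Timp2 passed the size rule at any dose. Timp2 was at 339 FPKM without IFNγ and 401, 270 and 231 with 0.2, 2 and 20 U/ml. The ratio of 0.24 at 0.2 U/ml turned to -0.12 after quantile normalization. Timp2 was above 94.8% of entries even at its lowest value, and its log2 ratio at 20 U/ml was -0.55. Timp1, an inhibitor of most secreted metalloproteinases, was at 2.45, 4.28, 2.64 and 4.52 FPKM. Its values were high at 0.2 and 20 U/ml and low in the other groups, with no order by dose. In the deposited comparison Timp1 and Syn1 share a locus, and each has an entry of its own. Timp3, an inhibitor held in the matrix, was at 0.00738, 0.00257 and 0.0199 FPKM and listed at 0 at 20 U/ml, near the floor throughout.

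Enzyme and inhibitor levels were set side by side on the FPKM scale, which is per length. The summed FPKM of the 7 metalloproteinases was 657, 466, 414 and 225 from untreated cells to 20 U/ml, and that of the 3 inhibitors was 341, 406, 273 and 236. Mmp12 made up 95.8% of the first sum without IFNγ and 83.4% with 20 U/ml, while Timp2 made up at least 98.1% of the second in every group. The Mmp12 to Timp2 ratio was 1.86 without IFNγ and 1.10, 1.45 and 0.811 with 0.2, 2 and 20 U/ml. It was lowest at the highest dose, but the values at 0.2 and 2 U/ml are not in dose order. Without Mmp12 the metalloproteinase sum was 27.9 FPKM without IFNγ and 23.4, 23.5 and 37.2 with 0.2, 2 and 20 U/ml. RNA levels of a precursor enzyme and its inhibitor do not measure enzyme activity.

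**Figure D2:**
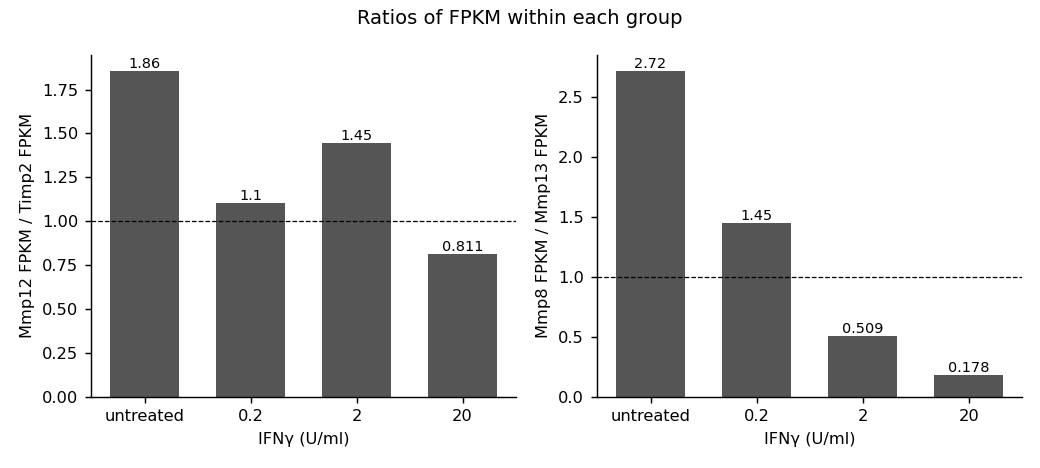
Ratios of FPKM within each group (vertical axes from 0) against IFNγ dose, with Mmp12 over Timp2 on the left and Mmp8 over Mmp13 on the right. The dashed line marks equal FPKM. The left ratio is 1.86 in untreated cells and 0.811 at 20 U/ml, and the right ratio steps down from 2.72 to 0.178.

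By dose, the counts of these 8 genes were set beside the shares of all entries, and with so few genes they are a description only. At 0.2 U/ml none of the 8 genes was higher or lower, and their log2 ratios lay between -0.56 for Mmp8 and 0.61 for Timp1. Among all entries 5.23% were higher at this dose and 0.328% lower. At 2 U/ml 0 of 8 were higher and Mmp8 alone was lower, against 2.5% and 0.76% of all entries. From 0.2 to 2 U/ml none passed, with 1.51% of all entries higher and 6.26% lower. From 2 to 20 U/ml Mmp14 was higher and Mmp12 lower (-1.06), against 2.9% and 1.11%. Mmp14 passed the filter only through its value at 20 U/ml. With pseudocounts of 0.1 and 0.01 Mmp14 was also higher at 2 U/ml, at 1.17 and 1.33, and Mmp9 was also lower from 2 to 20 U/ml, at -1.15 and -1.28. The comparisons with untreated cells share the untreated values, so they are not separate observations.

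Of the 8 genes, 2 had FPKM that went up at each step from untreated to 20 U/ml (Mmp13 and Mmp14) and 2 that went down at each step (Mmp8 and, but for quantile normalization, Mmp12). Among all 11580 entries 9.28% went up at each step and 6.54% went down. Mmp14 counts here although it passed the filter only through its value at 20 U/ml. The genes differed in where the difference lay. For Mmp8 71.2% of the log2 ratio at 20 U/ml was present at 2 U/ml, for Mmp13 51.1% and for Mmp14 23.1%. The Mmp14 share depends on the pseudocount. With a pseudocount of 0.1 its ratios were 1.17 at 2 U/ml and 3.62 at 20 U/ml, in place of 0.54 and 2.35.

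**Figure D3:**
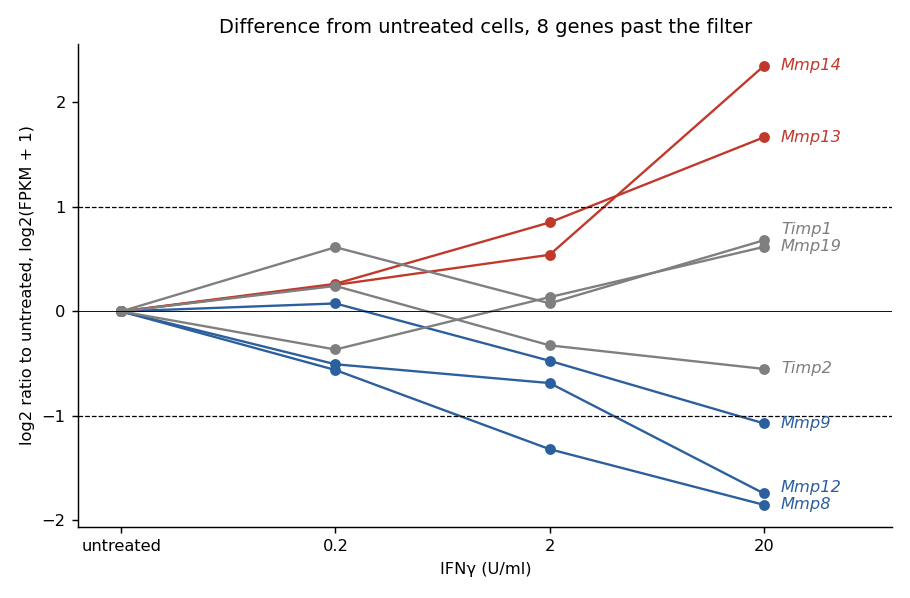
Difference from untreated cells in log2(FPKM + 1) (vertical axis) against IFNγ dose for the 8 genes past the filter. Colours are as in the plot of FPKM, and dashed lines mark the size rule. At 20 U/ml the genes range from -1.85 for Mmp8 to 2.35 for Mmp14, and at 0.2 U/ml all lie inside the dashed lines.

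Mmp13, Mmp12 and Mmp8 belong to a cluster of 10 metalloproteinase genes that spans 427 kb of mouse chromosome 9 (GENCODE M21, GRCm38). Mmp13 lies at chr9:7272514-7283331, Mmp12 at chr9:7344381-7369499 and Mmp8 at chr9:7558456-7568485, all on the plus strand. Opposite directions stood next to each other there, since Mmp13 and Mmp12 are neighbours with 61.0 kb between the end of the first and the start of the second. Mmp27, which follows Mmp8 after 2.91 kb, was the other gene of the cluster past the filter. It was at 7.58, 4.63, 2.54 and 1.36 FPKM, going down at each dose beside Mmp8, with a log2 ratio of -1.86 at 20 U/ml. The remaining 6 genes (Mmp1a, Mmp1b, Mmp3, Mmp7, Mmp10 and Mmp20) were under 0.1 FPKM in every group. The end of Mmp12 overlaps Mmp1b, which lies on the other strand, and Mmp1b was listed at 0 in all 4 groups. The sources used here do not say how reads of overlapping genes were divided.

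**Figure D4:**
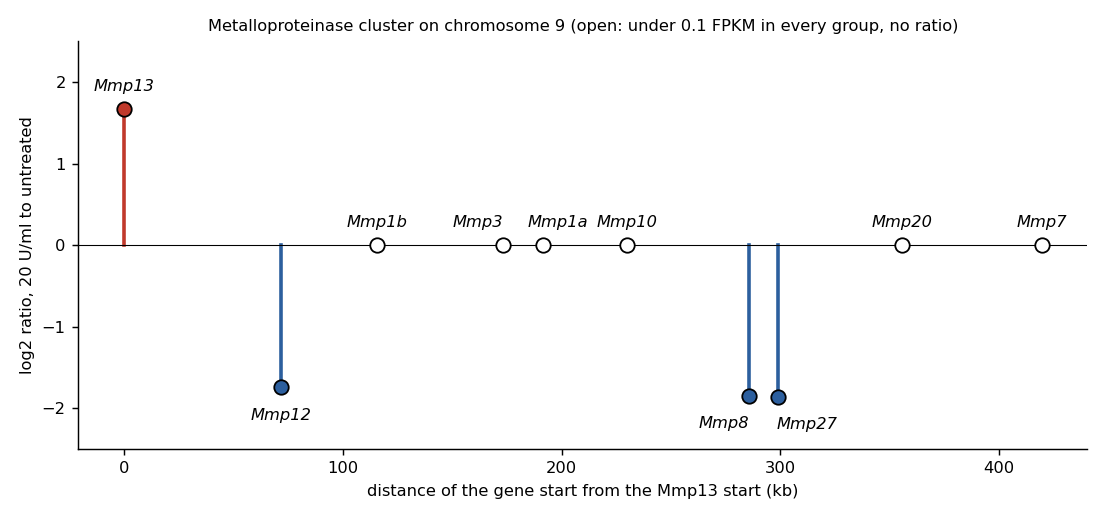
Log2 ratio of 20 U/ml to untreated (vertical axis) for the cluster on chromosome 9, against the distance of each gene's start from that of Mmp13 (kb). Filled points are genes past the filter and open points, drawn at 0, are genes under 0.1 FPKM in every group. Mmp13 at 1.67 stands above the line, and Mmp12, Mmp8 and Mmp27 lie between -1.74 and -1.86.

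The other 7 genes are on other chromosomes. Mmp14 lies at chr14:54431612-54445364, Mmp9 at chr2:164940780-164955850, Mmp2 at chr8:92827291-92853420 and Mmp19 at chr10:128790910-128800824. Timp1 lies at chrX:20870166-20874735, Timp2 at chr11:118301069-118355740 on the minus strand and Timp3 at chr10:86300372-86349506. All 10 genes are annotated as protein coding.

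Patterns most like those of the 5 genes that passed at 20 U/ml were sought among 9718 single-gene entries with a mean of at least 2 FPKM, by the Euclidean distance over the 3 log2 ratios to untreated. For Mmp8 the nearest entry was its neighbour Mmp27 (distance 0.064), followed by Gadd45a (0.10), a stress-induced growth arrest gene, and Gpr34 (0.16). For Mmp12 they were Stac2 (0.15), the iron exporter gene Slc40a1 (0.15) and Man1a (0.16). For Mmp9 they were D5Ertd605e (0.079), Gm15512 (0.079) and Tmem65 (0.080). For Mmp13 they were Tnfsf13b (0.080), the gene of the B cell survival factor BAFF, Noc4l (0.094) and Abhd16a (0.11). The entries nearest to Mmp14 lay farther off, with Arid5a at 0.20, Aldh1b1 at 0.27 and Gm38316 at 0.31. These ratios carry the added 1 FPKM, which damps them for Mmp9 and Mmp14, so a short distance is not an equal fold in FPKM. Each entry named for these genes had a smaller FPKM fold at 20 U/ml than the gene itself. Tmem65 went from 17.9 to 7.68 FPKM, while Mmp9 was 4.10-fold lower. Arid5a went from 3.14 to 18.3 FPKM, while the FPKM ratio of Mmp14 was 15.0. With 3 ratios that share the untreated value, such likeness is a description only.

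Other enzymes and partners of the family were read by list at 20 U/ml against untreated. The shares of all 11580 entries to set beside each count are again 6.51% higher and 2.94% lower. Of 16 other metalloproteinase genes 14 were under 1 FPKM in every group, and Mmp27 alone passed the filter. All 5 other inhibitors (Timp4, Reck, A2m, Pzp and Tfpi2) were under 1 FPKM in every group. Of 6 ADAM proteases past the filter, which shed proteins from the cell surface, 0 were higher or lower at 20 U/ml, with a median of 0.24. Adam15 was at 843 against 668 FPKM (0.33), Adam33 at 4.43 against 3.15 (0.39) and Adam17 at 36.7 against 46.5 (-0.33). Both ADAMTS proteases past the filter, Adamts1 (-0.95) and Adamts10 (-0.44), missed the size rule.

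Among genes that act upstream of metalloproteinase activation, in the plasminogen system 1 of 4 entries was lower, the protease inhibitor gene Serpine2, at 2.06 against 6.17 FPKM (-1.23). Plau, the urokinase that makes plasmin, was at 108 against 93.5 FPKM (0.21) at 20 U/ml and at 150 FPKM at 2 U/ml, and Plgrkt, a plasminogen receptor, was at 0.18. Of 3 proprotein convertases, 0 passed, with Furin (-0.65), which activates Mmp14, Pcsk7 (0.53) and a merged entry of Pcsk6, Snrpa1 and Gm45213 (0.37), whose reads cannot be told apart. Among 4 cathepsin and heparanase entries 0 passed. Ctsk (-0.98) and Ctsl (-0.94), both matrix-degrading cathepsins, lay just short of the size rule beside Hpse (0.56). Ctsb, also on this list, did not meet the filter. It was listed at 0 in untreated cells and at 2 U/ml, but at 2959 and 2093 FPKM at 0.2 and 20 U/ml.

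The 8 entries that dock, induce or clear metalloproteinases had a median of -0.50, and 2 were lower and 0 higher. Itgb3, an integrin chain of matrix receptors, was at 0.867 against 5.84 FPKM (-1.87), and Mrc1, the mannose receptor that also binds collagen, at 24.0 against 88.5 (-1.84). Sdc1 was at -0.82. Among 7 matrix components, whose median was -0.29, 2 passed as higher and 1 as lower. Vcan, a proteoglycan that passed the filter through its value at 20 U/ml, was at 3.53 against 0.733 FPKM (1.39), Tgfbi, a matrix adhesion protein, at 144 against 62.1 (1.20) and Fn1, fibronectin, at 0.678 against 3.68 (-1.48).

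Among regulators, 3 of 10 transcription factor entries with known sites in metalloproteinase promoters were higher and 0 lower, beside 6.51% and 2.94% of all entries. Among the 3, Irf1 was at 511 against 34.1 FPKM (3.87) and Stat3 at 47.0 against 16.1 (1.49). Of 3 cytokine entries that regulate the family 0 passed, with Tnf at 0.80, Osm at -0.52 and Tgfb1 at -0.34.

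**Figure D5:**
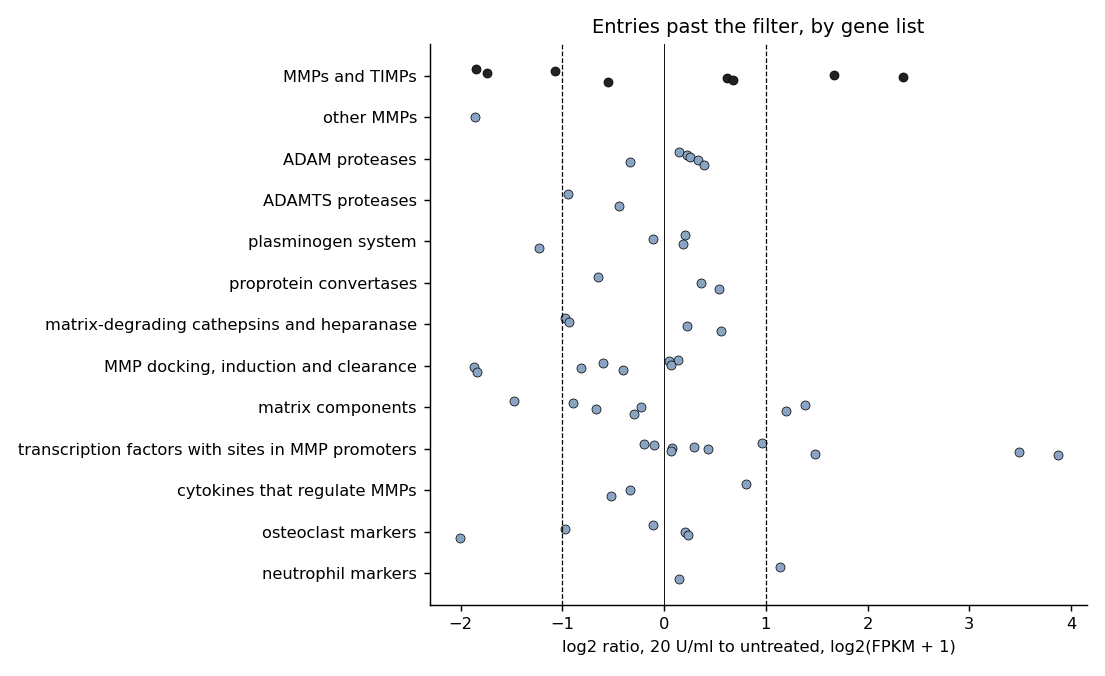
Log2 ratio of 20 U/ml to untreated in log2(FPKM + 1) (horizontal axis) for each entry past the filter, by gene list (vertical axis). Each point is an entry, black for the metalloproteinases and TIMPs, and dashed lines mark the size rule. Those 8 points run from -1.85 to 2.35, and the 6 ADAM points all lie inside the lines.

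Marker genes were read beside these values, since Mmp8 and Mmp9 are also neutrophil genes, Mmp9 and Mmp14 osteoclast genes and Mmp2 and Timp3 stromal genes. In bulk RNA, fewer cells of a type and less RNA per cell cannot be told apart. Of 10 macrophage markers 9 passed the filter, among them Csf1r at 340 to 418 FPKM and Cd68 at 1255 to 1814. Fcgr1, an Fc receptor gene, was higher at 20 U/ml (3.39), Cx3cr1 lower (-1.85) and Spi1 at 0.43. Among all 11580 entries 6.51% were higher and 2.94% lower, the shares to set beside the marker calls here and below. Lyz2 was listed at 0 in 3 groups and at 7449 FPKM in the other, so a listed 0 need not be absence.

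Of 13 neutrophil markers 9 were under 1 FPKM in every group, Mpo and Elane included, and Retnlg was at 0 throughout. Their summed FPKM was 18.6, 24.1, 30.7 and 37.4 from untreated cells to 20 U/ml, mostly S100a8 (1.14 at 20 U/ml, S100a9 0.15). Mmp8 and Mmp9 were lower at 20 U/ml. The part of neutrophils in the values of Mmp8 and Mmp9 was not tested. Of 8 osteoclast markers 5 passed the filter and 1 was lower, Atp6v0d2 (-2.01), beside 2.94% of all entries. Ctsk was at -0.98 and Nfatc1 at 0.23. The summed FPKM of the 8 markers was 145, 108, 87.2 and 59.9, lower at each dose. Atp6v0d2, from 94.6 to 22.7 FPKM, and Ctsk, from 31.9 to 15.7, carried that sum, while Acp5 was at -0.11, Dcstamp at 0.20 and Ocstamp at 0.142 FPKM in untreated cells and 1.80 at 20 U/ml. Mmp9 was lower at 20 U/ml and Mmp14 higher. The defining gene Calcr was at or near 0 throughout. The part of osteoclast-like cells in the values of Mmp9 and Mmp14 was not tested. Of 10 stromal markers 0 passed the filter, and their summed FPKM was between 1.32 and 2.20.

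The second deposited table compares conditions named untreated and treated and gives no dose. In the authors' deposited table Mmp8 had a log2 fold change of 3.03 (q = 9.95e-05) and Mmp12 of 1.86 (q = 9.95e-05), where the FPKM table has lower values at every dose. In the authors' deposited table Mmp13 (1.80), Mmp19 (1.16) and Timp2 (-2.06) also had q = 9.95e-05, each with the sign it had at 20 U/ml, as had Mmp14 (0.29, q = 0.554). Mmp9 (0.72, q = 0.223) and Timp1 (-0.44, q = 0.868) had the opposite sign in the authors' deposited table, which makes 4 of 8 in each direction among the genes past the filter. In the authors' deposited table Mmp2, below the filter, had -1.04 (q = 0.00376), against 0.34 at 20 U/ml. Mmp27, outside the set, had 0.62 (q = 9.95e-05) in the authors' deposited table, against -1.86 at 20 U/ml. These 2 were opposite in sign as well, and Timp3 was not tested there. The Irf1 and Gbp2 entries of the authors' deposited table, both IFNγ-induced genes, had log2 fold changes of 0.38 (q = 0.0747) and 0.28 (q = 0.310), where the FPKM table gave ratios of 3.87 and 5.24 at 20 U/ml. The authors' deposited table had q below 0.05 for 68.9% of the 12854 genes it tested. The sources used here do not say what its treated condition was.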

How the data were processed

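RNA of 12 libraries in 4 groups was sequenced. The submitters' processing notes name TopHat2 2.1.1, Cufflinks 2.1.1, Cuffdiff 2.1.1 and build mm10. The authors deposited FPKM, 1 value per group, per the file headers; the untreated column names no unit and spans the same range. Whether a value combines the 3 libraries is not stated in those sources. The authors' deposited comparison holds log2 fold changes with their p-values and q-values, per the file headers; its 2 columns of values per condition match no group and were not used.

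Ratios are differences of log2(FPKM + 1), computed with Python 3.11.15, numpy 2.4.6 and pandas 2.3.3 (figures with matplotlib 3.10.9) and tested on simulated data. FPKM keeps no depth, so precision is unknown. The members and the 15 gene lists were chosen with earlier results of these data known, and symbols in more than 1 entry were not used. Beside the 10 members and the 3 nearest patterns, the text names up to 3 entries per list. These were ranked by the size of their ratio at the highest dose. Marker and cluster genes outside that rule, and Ctsb, were named after their values were seen. The 7 alternatives changed the pseudocount, filter, scaling or size rule. A gene taken by this rule is not reported here.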

Additional observations from a re-analysis of the deposited data

How the results depend on the processing

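At 20 U/ml against untreated, the 5 calls (Mmp13 and Mmp14 higher, Mmp8, Mmp9 and Mmp12 lower) were the same with pseudocounts of 0.1 and 0.01, with no filter on the mean and under upper-quartile scaling and quantile normalization. A mean of at least 5 FPKM left out Mmp9, Mmp14, Mmp19 and Timp1. At 20 U/ml 1 gene was then higher and 2 lower, and from 2 to 20 U/ml 0 were higher. With pseudocounts of 0.1 and 0.01, 1 was higher at 2 U/ml and 2 lower from 2 to 20 U/ml. A 1.5-fold size rule gave 4 higher at 20 U/ml, 1 higher and 2 lower at 2 U/ml, 1 higher at 0.2 U/ml, 1 higher and 1 lower from 0.2 to 2 U/ml, and 3 higher and 2 lower from 2 to 20 U/ml. No ratio past the size rule changed sign. Of those short of it, Mmp9 at 0.2 U/ml (0.08) was at -0.0051 after upper-quartile scaling and -0.037 after quantile normalization, which also turned Timp2 at 0.2 U/ml (0.24) to -0.12 and Mmp12 from 0.2 to 2 U/ml (-0.18) to 0.19.

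Among all entries, 68.9% of the calls at 20 U/ml were higher, and 57.1% after upper-quartile scaling, which moved the median ratio to -0.11. With a pseudocount of 0.1, 539 entries were lower at 20 U/ml in place of 340, 174 at 2 U/ml in place of 88, 71 at 0.2 U/ml in place of 38 and 248 from 2 to 20 U/ml in place of 128, and 275 were higher from 0.2 to 2 U/ml in place of 175. With a minimum mean of 5 FPKM 58 were lower at 2 U/ml and 24 at 0.2 U/ml. No paired analysis was possible because the table holds 1 value per group with no replicate number, and for the same reason no replicate could be left out.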

Other observations

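Some metalloproteinase and osteoclast genes below the filter had their highest value at 20 U/ml, and are named here after their values were seen. Mmp25, a membrane-anchored metalloproteinase of leukocytes, was at 0.0367 FPKM without IFNγ and 0.0234, 0.122 and 0.941 with 0.2, 2 and 20 U/ml. Mmp28 was at 0.191, 0.257, 0.286 and 0.608 FPKM in the same order, and Ocstamp, a gene of osteoclast fusion, at 0.142, 0.299, 0.403 and 1.80. These values are near the floor of the table and have no replicate check.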
